A study of Mus musculus with 3 samples.

Results

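The Tcf21 and Pdgfra positive stromal cells of the mouse testis interstitium were 695 of the 19396 cells that stayed within the cell limits in 3 droplet single-cell libraries. A cell was a member when it held at least 1 UMI (1 counted transcript molecule) of at least 4 of 8 genes, Tcf21, Pdgfra, Clec3b, Dpt, Efemp1, Gsn, C3 and Lum. It also had to hold at most 1 UMI of Myh11, the smooth muscle myosin of peritubular myoid cells, and no UMI of Ptprc (leukocytes), Cdh5 (endothelium) or Cyp17a1 (Leydig cells). The members were thus chosen by their measured UMIs of these genes, so levels of the genes are given below as a description and enter no count of differing genes. The Tomato-negative library held 63 members of 6234 cells, the control library 47 of 6124, and the cKO library 585 of 7038.

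Interstitial stromal cells lie between the seminiferous tubules and around vessels, build the loose connective tissue there, and carry Pdgfra, a receptor for platelet-derived growth factors. Tcf21 is a basic helix-loop-helix transcription factor of mesenchymal progenitors, and cells marked by it in the testis have been described as a reserve of Leydig and myoid cells. Stem cell factor, the product of Kitl (Scf), is a ligand that germ cells need for differentiation, and stromal cells are among the somatic cells that transcribe it.

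The Tomato-negative library came from Ddx4-creER; R26tdTomato mice at 8 weeks of age, in which tamoxifen had labelled germ cells with Tomato, and Tomato+ cells were removed by flow cytometry. The control library came from Scf fl/fl mice and the cKO library from mice that were Amh-cre; Scf fl/fl, both at 6 weeks of age. The Amh promoter drives Cre in Sertoli cells. The control mice thus carried the floxed Scf allele too. Control and cKO cells were sorted on Hoechst and propidium iodide staining to deplete haploid germ cells. All mice were on the C57BL/6 background, and each group was 1 library. The paper names 3 mice for the Tomato-negative cells and 3 pairs of mice for the control and cKO cells. With 1 library per group, each library was taken as a pool of 3 mice. No spread between mice could therefore be measured, and every interval below covers counting error only, at 95%.

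The stromal cells of the 3 libraries differed in depth and in how many germ cell transcripts they held. Members had a median of 4835 UMIs in the Tomato-negative, 3301 in the control and 5011 in the cKO library, and summed to 430869, 244637 and 3130442 UMIs. At least 1 UMI of the germ cell genes Ddx4, Dazl or Sycp3 was found in 11 of 63, 11 of 47 and 58 of 585 members. Above 20000 UMIs stood 3, 2 and 5 members, and these held 34.0%, 39.0% and 3.93% of the summed UMIs. The deepest control member alone held 63281 UMIs and 7965 genes, which was 25.9% of the control sum, and the next held 32062. Levels are therefore given over all members and again over the 52, 36 and 527 members with no UMI of the 3 germ cell genes, called germ-free here. Libraries shared 9 to 15 barcodes, and no barcode was a member in both the control and the cKO library.

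**Figure D1:**
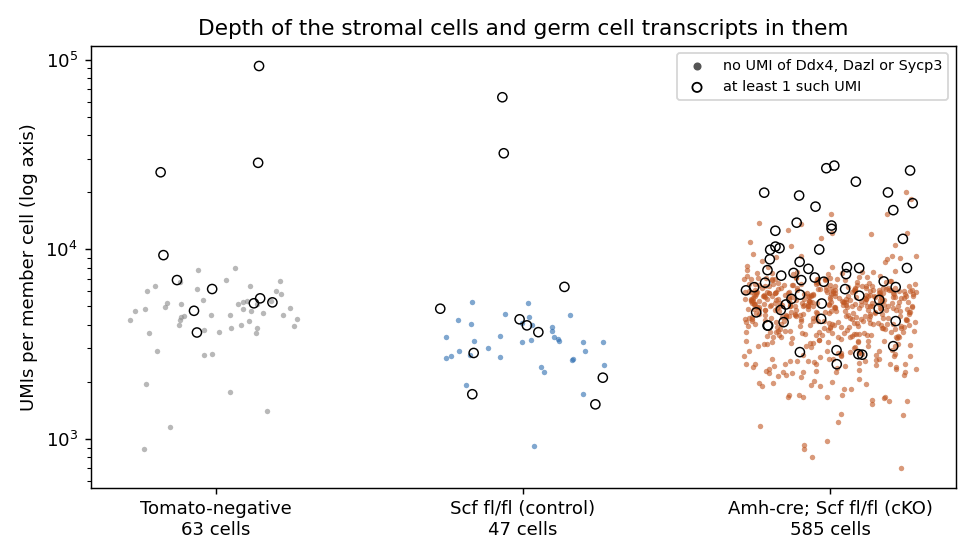
Each point is 1 stromal cell, with its UMIs on a log axis, by library; rings mark cells with at least 1 UMI of Ddx4, Dazl or Sycp3. The 2 deepest control cells, at 63281 and 32062 UMIs, stand far above the control median of 3301.

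The 8 genes of the rule were not found equally often. Gsn, an actin-severing protein, was detected in 100%, 100% and 99.0% of Tomato-negative, control and cKO members, and Pdgfra in 93.7%, 85.1% and 93.7%. Tcf21 was detected in 77.8%, 68.1% and 90.3%, and both Tcf21 and Pdgfra in 74.6%, 57.4% and 84.8%. Clec3b (tetranectin) reached 74.6%, 91.5% and 74.7%, and Efemp1, a fibulin of elastic fibres, 69.8%, 63.8% and 80.2%. The remaining 3 genes were minority genes in every library. The complement component C3 was seen in 46.0%, 23.4% and 10.3% of members, the proteoglycan Lum in 20.6%, 10.6% and 18.1%, and the adventitial gene Dpt in 12.7%, 25.5% and 6.84%. The order of C3 and of Dpt across libraries was also that of their levels, at 395, 114 and 42.8 CPM (counts per 1000000 of the members' summed UMIs) for C3 and 25.5, 57.2 and 19.8 CPM for Dpt.

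**Figure D2:**
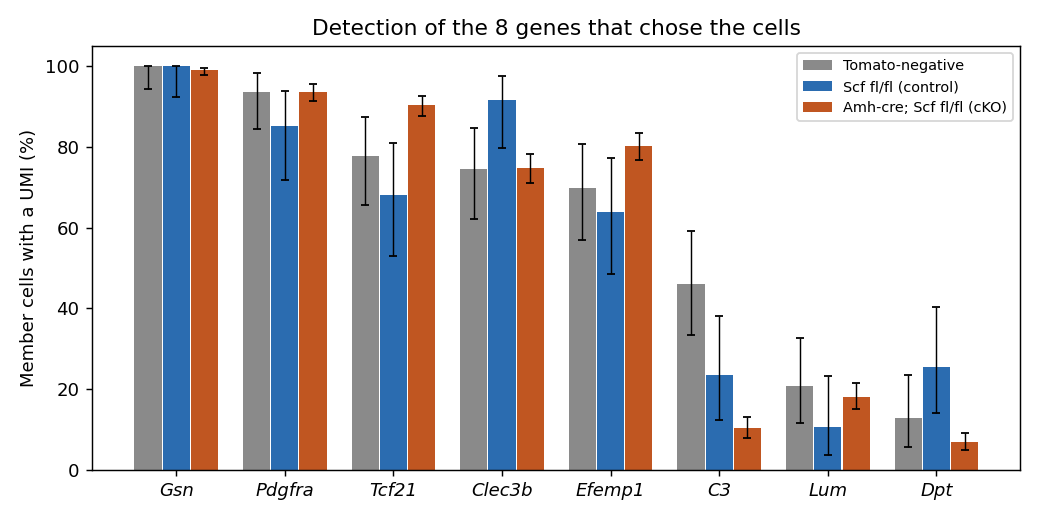
Bars give the percent of stromal cells with at least 1 UMI of each gene of the rule, by library, and whiskers the exact binomial 95% interval. Gsn was close to 100% in all 3 libraries, whereas C3 ran from 46.0% in the Tomato-negative to 10.3% in the cKO library.

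Genes that the rule did not use were those of fibroblast-like cells. Dcn (decorin), a collagen-binding proteoglycan, was found in every member, at 10377, 8817 and 9330 CPM in the Tomato-negative, control and cKO libraries, against 409, 628 and 1045 CPM in the 256, 700 and 2074 peritubular myoid cells. Cd34, a surface sialomucin of many stromal cells, stood at 309, 482 and 543 CPM in members and 24.8, 42.9 and 63.9 CPM in myoid cells. The imprinted noncoding RNA Meg3, at 323, 401 and 534 CPM, and the IGF binding protein Igfbp4, at 490, 319 and 427 CPM, were at most 6.51 CPM in myoid cells of any library. Among genes seen in at least 50% of members and not used in the rule, Penk, Osr1, Wnt6, Col15a1, Entpd2, Htra3 and Serpinf1 were also among the 40 with the largest ratio to myoid cells in all 3 libraries. This comparison of chosen cells with others is a description.

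Cells at the edge of the rule differed by library. Members with exactly 4 of the 8 genes numbered 24, 20 and 250, and 23, 20 and 151 cells with 3 of them passed every other condition. Dcn stood at 10799, 6103 and 7661 CPM just inside the threshold and at 204, 1171 and 4506 CPM just outside. In the Tomato-negative library 19 of the 23 cells just outside held a germ cell UMI, and their median depth was 77581 UMIs.

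Markers of other cell types were scarce in the members, apart from those of germ, Sertoli and Leydig cells. Over all members, 10 endothelial markers summed to 30.2, 4.09 and 6.71 CPM, 12 macrophage and leukocyte markers to 6.96, 28.6 and 89.1 CPM, and 8 mural markers to 92.8, 28.6 and 67.7 CPM. Of the 5 erythroid markers, 4, 5 and 5 were at 0. The 7 myoid markers summed to 137, 159 and 237 CPM, where Acta2 alone, the smooth muscle actin, reached 8114, 8665 and 9966 CPM in myoid cells. By contrast, 10 spermatocyte markers summed to 2706, 4059 and 102 CPM and 12 spermatid markers to 1163, 360 and 6.71 CPM. In germ-free members the spermatocyte sums were 303, 390 and 34.3 CPM and the spermatid sums 1834, 593 and 6.17 CPM, so haploid transcripts were not limited to cells with a Ddx4, Dazl or Sycp3 UMI. Their part in the results below was not tested beyond the values given there.

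Members made up 1.01% of kept cells in the Tomato-negative library (exact Clopper-Pearson interval 0.777% to 1.29%), 0.767% in the control (0.564% to 1.02%) and 8.31% in the cKO library (7.68% to 8.98%). With every cell thinned to 2000 UMIs and shallower cells left out, the shares were 0.755%, 0.519% and 6.65%. Per 100 peritubular myoid cells the libraries held 24.6, 6.71 and 28.2 members. The share of the cKO library was thus the highest by either denominator, but the Tomato-negative library lay close to it per myoid cell. The sorts differed, and so did the number of germ cells. These made up 4133 of 6234 Tomato-negative, 4274 of 6124 control and 2291 of 7038 cKO cells. A share of all cells moves with both, and germ cells stayed frequent in the Tomato-negative library despite its sort.

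Matrix genes were abundant in the stromal cells, and the direction of their median difference between control and cKO depended on which members were summed. Dcn, with the ferritin chain Fth1, followed the nuclear RNA Malat1 at the head of the transcripts in each library. The collagen chain Col1a2 was measured at 1214, 1214 and 1412 CPM in the Tomato-negative, control and cKO libraries, and Col3a1 at 462, 568 and 657 CPM. Sparc, a collagen-binding matricellular protein, stood at 1699, 1754 and 2293 CPM, and the laminin chain Lama2 at 520, 580 and 906 CPM. None of these 4 genes passed the threshold used below for a difference. Over 17 collagens and their enzymes the median log2 ratio of cKO to control was 0.06 in all members and -0.37 in germ-free members. For 26 proteoglycan and microfibril genes it was 0.25 and -0.33, against 0.09 and -0.11 over all genes. Igfbp7, a secreted IGF binding protein, was at 2400, 2596 and 4164 CPM, 1.60-fold higher in cKO than in control. Its log2 ratio ran from 0.16 to 1.49 across the alternatives.

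The control and cKO members were compared gene by gene, which asks how stromal cells differed between testes with and without Scf in Sertoli cells. A gene was called higher or lower when the ratio of CPM was at least 2-fold and its exact conditional interval excluded no change, which is a statement on these 2 libraries and no test of genotype. Among 10687 genes with at least 20 counts over both libraries, 678 were called higher in cKO (6.34%) and 1435 lower (13.4%), with a median log2 ratio of 0.09. Over germ-free members 9430 genes could be compared, of which 164 were higher (1.74%) and 269 lower (2.85%), with a median of -0.11. Most calls were thus lost with the 11 control and 58 cKO cells that held germ cell UMIs. Leaving out only the 2 control and 5 cKO members above 20000 UMIs gave similar numbers, 190 higher and 297 lower. The control sum also fell, from 244637 to 118014 UMIs in germ-free members. Called the same way over all members and under each of 6 alternatives were 43 genes higher (0.402%) and 67 lower (0.627%). The 6 alternatives were an upper limit of 3500 genes per cell, equal weight for each cell, thinning to 2000 UMIs, removal of called doublets, subtraction of free RNA, and germ-free members.

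The genes with the most negative ratios were transcripts of spermatocytes and spermatids carried by the 2 deepest control cells. Meig1, needed for spermatid differentiation, had 613 counts in control members, 588 of them in those 2 cells, and 12 in cKO members. Fabp9, a fatty acid binding protein of spermatids, had 431 control counts, 415 of them in those cells, and 10 in cKO. Crisp2, Spink2, Hspb9, Pgam2, Ybx2, Cetn1, Ldhal6b, Stpg4, Cmtm2b, Ppp3r2, Hrasls5, March11 and AA467197 were the others of the 15 lowest, and the 2 cells held 111 to 279 of the 118 to 293 control counts of each. Of the 67 genes lower over all members and under each of those 6 alternatives, 42 had a higher level in germ cells of the control library than in its germ-free members, and of the 43 genes higher in the same way 18 did. The share over all tested genes is not given here, so both counts are a description only. The following paragraphs turn mainly to other genes, which were chosen after these values were seen. Ccl2 and Gdpd3, described below, are among the 18, with 0 counts in control members.

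The clearest difference outside germ cell transcripts was a lower level of interferon-inducible and antigen presentation genes in cKO than in control members. Of 23 genes of this list 21 were measured. Of these 0 were higher and 6 lower, among them H2-K1, Tap1, Psmb8, Psmb9 and Gbp2, beside 6.34% and 13.4% of all genes. The median log2 ratio was -0.81, against 0.09 over all genes. Over germ-free members 11 were lower, with Ifit3, Bst2, Stat2, B2m and H2-D1 in addition, beside 2.85% of all genes. The median there was -1.54, against -0.11 over all genes. Summed over the list, germ-free members held 4228, 6609 and 3511 CPM in the Tomato-negative, control and cKO libraries, so the control library stood above both others. The median member held 3771, 6059 and 3292 CPM of the list, with quartiles of 2706 to 5269, 4639 to 7979 and 2389 to 4390, and the control's lower quartile thus lay above the cKO's upper quartile. In myoid cells the sums were 1485, 2046 and 2003 CPM, without a like gap between control and cKO.

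Iigp1, a GTPase induced by interferon-gamma that attacks the vacuoles of intracellular parasites, differed most. It is not on the list and was named for its ratio. Its counts were 27, 203 and 221, or 62.7, 830 and 70.6 CPM in the Tomato-negative, control and cKO libraries. The cKO level was 11.8-fold lower than the control (log2 ratio -3.56, interval -3.84 to -3.27), and the Tomato-negative level lay beside that of the cKO. A UMI was seen in 19.0%, 78.7% and 14.9% of members, and in 10.3%, 73.8% and 8.81% after thinning to 2000 UMIs, so most control stromal cells carried the transcript. In germ cells the shares were 0.944%, 0.445% and 0.480%, at median depths of 17564, 8562 and 16417 UMIs. Myoid cells held 0.612, 18.9 and 2.99 CPM, a log2 ratio of -2.65 between cKO and control.

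Ly6a (Sca-1), a surface protein of stromal and progenitor cells, was also highest in the control library. It stood at 153, 495 and 116 CPM in the Tomato-negative, control and cKO libraries, and 41.3%, 72.3% and 23.1% of members held a UMI. The cKO level was 4.29-fold lower than the control, with a log2 interval of -2.40 to -1.79, and 6.85-fold lower over germ-free members. In myoid cells Ly6a did not exceed 0.460 CPM in any library. The GTPase Gbp7, also outside the list, was at 46.4, 139 and 37.7 CPM and 3.73-fold lower in cKO.

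Genes of peptide processing and loading for MHC class I were also lower in cKO members. Psmb8, a catalytic subunit of the immunoproteasome, stood at 20.9, 164 and 39.3 CPM and in 14.3%, 59.6% and 18.5% of Tomato-negative, control and cKO members. Its partner subunit Psmb9 was at 11.6, 81.8 and 20.1 CPM, and the peptide transporter subunit Tap1 at 6.96, 65.4 and 16.0 CPM. These 3 genes were 4.20-, 4.13- and 4.18-fold lower in cKO than in control, and 6.43-, 8.55- and 5.55-fold lower over germ-free members. In each of them the Tomato-negative value was below that of the cKO. The log2 ratios in myoid cells were -0.26, -0.12 and -0.53.

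The MHC class I chains themselves showed a smaller difference and another order. H2-K1 stood at 162, 262 and 101 CPM, 2.62-fold lower in cKO than in control (log2 interval -1.77 to -0.97), with the Tomato-negative library between them. H2-D1 was at 374, 352 and 189 CPM and the light chain B2m at 350, 425 and 244 CPM, and neither reached 2-fold over all members. Over germ-free members the levels were 555, 542 and 206 CPM for H2-D1 and 517, 746 and 258 CPM for B2m, 2.65-fold and 2.90-fold lower in cKO than in control. H2-K1 was also detected in 69.7%, 62.0% and 18.4% of germ cells.

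Not every interferon-responsive gene was lower. Irf1, an interferon-induced transcription factor, was at 116, 282 and 424 CPM in the Tomato-negative, control and cKO libraries, and at 156, 458 and 469 CPM in germ-free members, a log2 ratio of 0.02 (interval -0.36 to 0.46). Ifi27 was at 121, 147 and 250 CPM, and Ifitm3, a membrane protein that restricts virus entry, at 1005, 1508 and 1137 CPM. Neither was called.

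Promoter windows of the list were searched on both strands for the letters GAAA, 2 bases of any kind and GAAA, the core repeat of an interferon-stimulated response element, in the 250 bases before each RefSeq start site on GRCm38.p6. They were present in 10 of 26 windows of the list, from 21 of its 23 genes, and in 978 of 32851 windows of all genes (2.977%). The genes with a match were B2m, Gbp3, Gbp2, Isg15, Ifitm2, Bst2, Stat2, Rsad2, Ifit3 and Ifit1, of which Gbp2 was called lower over all members and B2m, Bst2, Stat2 and Ifit3 in addition over germ-free members. No match was found in the windows of H2-K1, H2-D1, Tap1, Psmb8 and Psmb9, called lower over all members or, for H2-D1, over germ-free members. A match is a description of letters and no measured binding. The windows of 3 called genes are given 5′ to 3′ with the matching letters in capitals, which in Gbp2 lie on the opposite strand and in Bst2 overlap in a double match:
B2m, chr2:122147437-122147686, plus strand: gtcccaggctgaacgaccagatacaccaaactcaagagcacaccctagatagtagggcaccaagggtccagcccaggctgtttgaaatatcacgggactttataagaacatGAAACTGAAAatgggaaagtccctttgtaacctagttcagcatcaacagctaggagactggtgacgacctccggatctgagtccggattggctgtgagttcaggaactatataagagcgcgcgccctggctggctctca
Gbp2, chr3:142620413-142620662, plus strand: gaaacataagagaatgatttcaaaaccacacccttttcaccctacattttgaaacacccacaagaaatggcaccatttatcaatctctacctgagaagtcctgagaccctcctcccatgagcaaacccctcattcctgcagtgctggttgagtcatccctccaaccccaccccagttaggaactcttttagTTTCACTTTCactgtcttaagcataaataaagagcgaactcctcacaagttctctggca
Bst2, chr8:71537473-71537722, minus strand: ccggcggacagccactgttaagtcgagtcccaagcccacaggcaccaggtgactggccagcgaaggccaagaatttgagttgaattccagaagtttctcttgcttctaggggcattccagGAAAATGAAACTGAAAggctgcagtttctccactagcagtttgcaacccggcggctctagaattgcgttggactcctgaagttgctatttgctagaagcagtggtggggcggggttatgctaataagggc

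The stromal niche factors, for which the study had asked which somatic cells express them, showed no called difference between control and cKO members. Of 12 genes 10 were measured, and 0 were higher and 0 lower, beside 6.34% and 13.4% of all genes. Over germ-free members 0 were called either way, beside 1.74% and 2.85% of all genes. With 10 genes, 0 calls lie near these shares. The median log2 ratio was 0.56 over all members and -0.07 over germ-free members. With a gene at 0 in the control set to its bound, the latter was -0.15. Kitl itself was at 202, 249 and 319 CPM in the Tomato-negative, control and cKO libraries, and 52.4%, 61.7% and 68.5% of members held a UMI. Its log2 ratio of cKO to control was 0.34 (interval -0.02 to 0.75) and -0.19 over germ-free members (-0.61 to 0.29). The Cre of the cKO mice acts in Sertoli cells, and these 3′ tags are no check of the deletion. Myoid cells held Kitl at 19.9, 26.3 and 22.1 CPM, below its level in the stromal cells of each library, and 4.67%, 0.515% and 1.88% of germ cells held a UMI.

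Igf1, which promotes growth and Leydig cell maturation, was the most abundant of these factors, at 1404, 736 and 868 CPM. The Tomato-negative library was highest also over germ-free members, at 2217, 1254 and 977 CPM. Cxcl12, a ligand of the chemokine receptor Cxcr4, was at 334, 298 and 467 CPM, and Csf1, the macrophage growth factor, at 109, 106 and 172 CPM. Bmp4 stood at 60.3, 53.1 and 85.9 CPM and the activin subunit Inhba at 71.9, 45.0 and 63.2 CPM, close to each other in level. Fgf2 (16, 7 and 60 counts), Nrg1 (9, 1 and 31), Wnt5a (9, 1 and 72) and Pdgfa (11, 2 and 44) rested on few molecules, and a 2-fold difference was not detectable for them at this depth. Gdnf had 0, 0 and 1 counts and Egf 0, 0 and 7. A count of 0 allows up to 6.96 CPM in the Tomato-negative and 12.3 CPM in the control members.

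**Figure D3:**
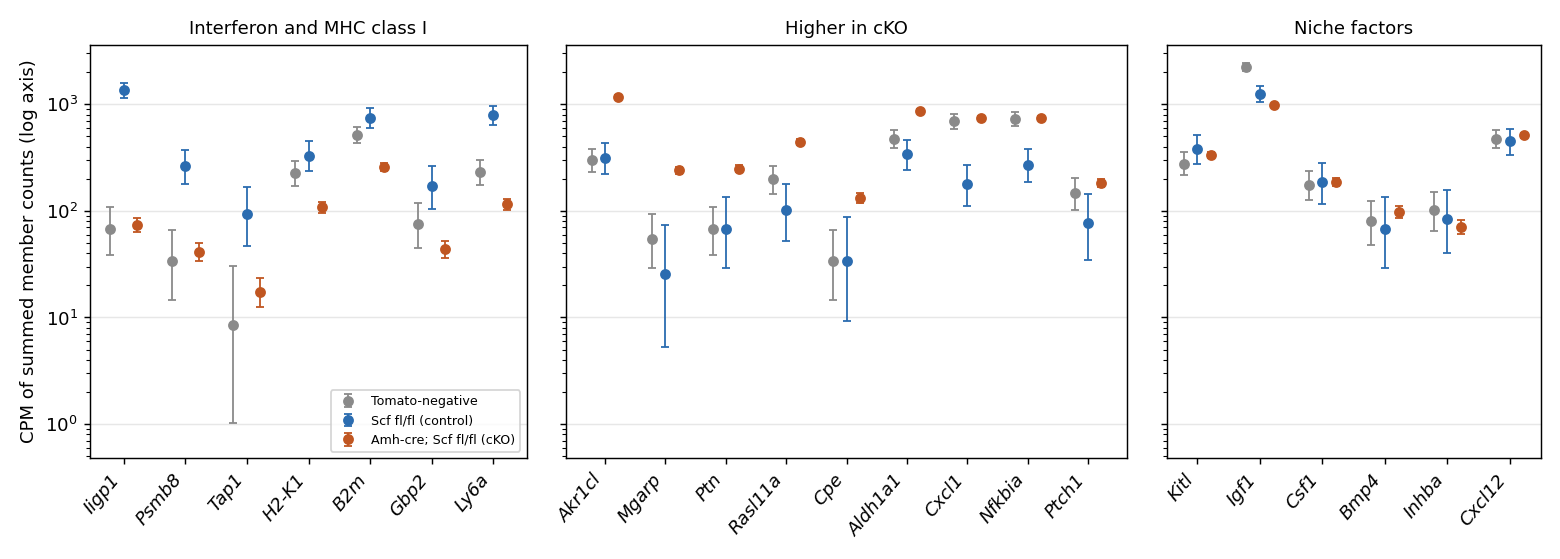
Points give the CPM of germ-free stromal cells on a log axis for named genes in the 3 libraries, and whiskers the exact Poisson 95% interval. Iigp1, Psmb8, Tap1 and Ly6a peak in the control, Akr1cl, Mgarp, Ptn and Cpe in the cKO library, and the niche factors lie closer together.

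Several genes were higher in cKO members while the Tomato-negative library stood beside the control. Akr1cl, a member of the aldo-keto reductase family, was at 188, 217 and 1108 CPM in the Tomato-negative, control and cKO libraries, and 57.1%, 53.2% and 78.8% of members held a UMI. It was 5.07-fold higher in cKO than in control (log2 interval 1.96 to 2.77) and 3.68-fold higher over germ-free members, whereas in myoid cells its log2 ratio was -0.09. Ptn (pleiotrophin), a heparin-binding growth factor, was at 41.8, 40.9 and 236 CPM, 5.50-fold higher in cKO and 3.47-fold over germ-free members. Ptn differed in myoid cells too, at 33.7, 59.0 and 553 CPM, so it was higher in both cell types.

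Mgarp, a protein of mitochondria in steroid-producing cells, was at 44.1, 32.7 and 219 CPM and in 19.0%, 12.8% and 47.2% of members. Rasl11a, a small GTPase, was at 123, 73.6 and 438 CPM, and Cpe, a peptide-processing carboxypeptidase, at 23.2, 20.4 and 128 CPM. The ratios of cKO to control were 6.32-, 5.79- and 5.70-fold, on 8, 18 and 5 control counts, and 8.07-, 4.18- and 3.47-fold over germ-free members. In each the cKO level lay well above both other libraries, which lay close together relative to that gap. Myoid cells held Mgarp at 83.6, 76.3 and 90.0 CPM and Cpe at 525, 566 and 602 CPM, nearly level across libraries, but Rasl11a at 227, 340 and 584 CPM.

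Retinoid enzymes belonged to this group in part. Aldh1a1, which makes retinoic acid from retinaldehyde, was at 343, 217 and 813 CPM, 3.72-fold higher in cKO (log2 interval 1.52 to 2.33) and 2.52-fold higher over germ-free members, but was no longer called with equal weight per cell or with at most 3500 genes per cell. Of 12 measured genes of retinoid handling 2 were higher (Aldh1a1 and Cyp26b1) and 1 lower (Aldh1a2), beside 6.34% and 13.4% of all genes. Over germ-free members 2 of 11 were higher (Aldh1a1 and Rxra) and 0 lower, beside 1.74% and 2.85% of all genes. Cyp26b1, which degrades retinoic acid, was at 594, 719 and 1639 CPM over all members and at 829, 1229 and 1754 CPM over germ-free members, where the ratio was below 2-fold. It was detected in 60.3%, 66.0% and 92.1% of members.

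A second set of genes was lower in the control than in both other libraries and included targets of NF-kB. Cxcl1, a chemokine for neutrophils, was at 402, 155 and 725 CPM and in 46.0%, 25.5% and 57.4% of Tomato-negative, control and cKO members. Nfkbia, the inhibitor that NF-kB induces against itself, was at 525, 168 and 687 CPM and in 87.3%, 44.7% and 80.3%. The ratios of cKO to control were 4.61- and 4.05-fold, and 4.08- and 2.72-fold over germ-free members. Myoid cells showed the same direction, with 72.1 control and 230 cKO CPM for Cxcl1 and 200 and 478 CPM for Nfkbia.

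The chemokine Ccl2 had 35, 0 and 159 counts. Against a floor of 3 counts in the control it was at least 4.14-fold higher in cKO. A UMI was found in 11.1%, 0% and 6.67% of members, and 0 of 47 control cells, at a median of 3301 UMIs, allows a share of up to 6.38% of cells with a UMI. The adhesion molecule Icam1 was at 255, 200 and 592 CPM and Vcam1 at 599, 519 and 1260 CPM, 2.93- and 2.42-fold higher in cKO than in control. In both, unlike Cxcl1 and Nfkbia, the Tomato-negative level lay near that of the control. Vcam1 was no longer called under 6 alternatives (at most 3500 genes per cell, at least 5 markers, equal weight per cell, thinning, removal of called doublets, and without members over 20000 UMIs). Of the 11 measured chemokines and cytokines 3 were higher (Ccl2, Cxcl1 and Cxcl10) and 1 lower, beside 6.34% and 13.4% of all genes. Over germ-free members 2 were higher (Ccl2 and Cxcl1) and 1 lower, beside 1.74% and 2.85% of all genes. The lower gene, Cxcl14, was at 123, 192 and 93.3 CPM, 2.08-fold lower in cKO.

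The letters GGG, 2 bases of any kind and TTTCC, the core of an NF-kB element, were searched on both strands of the same windows and were present in 3 of 20 windows of the chemokine and cytokine list, from 17 of its 24 genes, and in 464 of 32851 windows of all genes (1.412%). The holders were Il6, Cxcl1 and Cxcl2. No match was found in the windows of Cxcl10, called higher over all members, and of Cxcl14, called lower. No window was available for Ccl2, also called higher. The window of Nfkbia, which is outside the list and was searched as a single named gene, held a match. Both called genes with a match are shown, with the matches in capitals:
Cxcl1, chr5:90890995-90891244, plus strand: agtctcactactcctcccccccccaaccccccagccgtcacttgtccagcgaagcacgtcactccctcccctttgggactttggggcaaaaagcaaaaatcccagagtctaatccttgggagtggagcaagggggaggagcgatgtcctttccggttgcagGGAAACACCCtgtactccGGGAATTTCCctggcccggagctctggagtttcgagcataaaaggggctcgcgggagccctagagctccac
Nfkbia, chr12:55492648-55492897, minus strand: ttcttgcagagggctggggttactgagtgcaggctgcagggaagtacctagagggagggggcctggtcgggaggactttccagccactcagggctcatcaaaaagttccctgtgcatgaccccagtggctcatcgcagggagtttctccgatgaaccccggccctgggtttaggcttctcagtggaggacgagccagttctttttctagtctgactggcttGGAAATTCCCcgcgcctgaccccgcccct

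Other genes of this second set served different processes. Gdpd3, a lysophospholipase D, had 22, 0 and 210 counts, was at least 5.47-fold higher in cKO than in control against the floor, and was found in 23.8%, 0% and 21.0% of members. Myoid cells held Gdpd3 at 44.4, 0.445 and 68.0 CPM, so its near absence was shared by both cell types of the control library. Ptch1, receptor and transcriptional target of hedgehog signalling, was at 118, 53.1 and 168 CPM, 3.05-fold higher in cKO than in control (log2 interval 0.87 to 2.58), on 13 control counts, and was no longer called with at least 5 markers or without members over 20000 UMIs. Of 12 measured hedgehog genes 2 were higher (Ptch1 and Gas1) and 1 lower (Evc), beside 6.34% and 13.4% of all genes. Over germ-free members 1 of 11 was higher (Ptch1) and 1 lower (Evc), beside 1.74% and 2.85% of all genes.

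Hsd3b6 and several other Leydig cell genes were found mainly in a small set of cKO members, whereas Prlr and Fdx1 were found in 63.1% and 49.4% of the other cKO members too. Over all members 6 of 8 measured Leydig markers were called higher in cKO (Star, Cyp11a1, Hsd3b6, Lhcgr, Prlr and Ces1d), beside 6.34% of all genes. Over germ-free members 4 were called higher (Star, Hsd3b6, Fdx1 and Lhcgr), beside 1.74% of all genes. With genes at 0 in the control set to their bound, the median log2 ratios were 1.13 and 1.03. Hsd3b6, a steroid dehydrogenase of adult Leydig cells, had 0, 0 and 747 counts, all of them in 24 of the 585 cKO members. None of 47 control and 63 Tomato-negative members held it, which allows shares of up to 6.38% and 4.76% of cells with a UMI. These limits do not cover cells that express the gene unseen, and control members were shallower, at a median of 3301 UMIs against 11126.5 in the 24 cells. In cKO germ cells, which should lack the gene, 1.18% held a UMI, against 4.10% of members.

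These 24 cells were compared with the other 561 cKO members as a description, since Hsd3b6 was picked after its values were seen. Their median depth was 11126.5 UMIs against 4946. Lhcgr, the receptor for luteinizing hormone, was found in 79.2% of the 24 cells and in 6.06% of the others, and Star, which carries cholesterol into mitochondria, in 70.8% and 6.42%. The side-chain cleavage enzyme Cyp11a1 was found in 29.2% and 0.357%, and Hsd3b1 in 41.7% and 0%. The 24 cells thus carried steroid synthesis genes while they held no Cyp17a1 by rule.

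The same cells held Tcf21 (91.7% against 90.2%) and Pdgfra (100% against 93.4%) but had a lower level of Dcn. Tcf21, Pdgfra, Gsn and Clec3b belong to the rule, so their presence in these cells was in part fixed by the choice of members. Dcn stood at 2264 CPM in them and 10022 CPM in the other members, and Gsn at 588 and 4385 CPM. Igf1 was found in 29.2% and 86.1% and Clec3b in 33.3% and 76.5%. Aldh1a1 was at 3461 and 554 CPM and Akr1cl at 3876 and 837 CPM, so part of the cKO sum of these genes came from the 24 cells. Without them the log2 ratios of cKO to control were 1.34 for Aldh1a1 and 1.94 for Akr1cl, and Star was no longer called. The 24 cells also held Clu and Inha more often. Clu (clusterin), a Sertoli marker here, was found in 18 of the 24 cells and in 3.21% of the others, and Inha, the inhibin alpha subunit, in 66.7% and 6.06%. Only 17 of the 24 cells held at least 5 Hsd3b6 UMIs. In these 17, Igf1 was found in 5.88%, Clec3b in 17.6%, and Clu and Inha in 94.1% each, with Gsn at 385 CPM. The shares of the 24 cells thus mix these with cells of fewer Hsd3b6 UMIs.

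**Figure D4:**
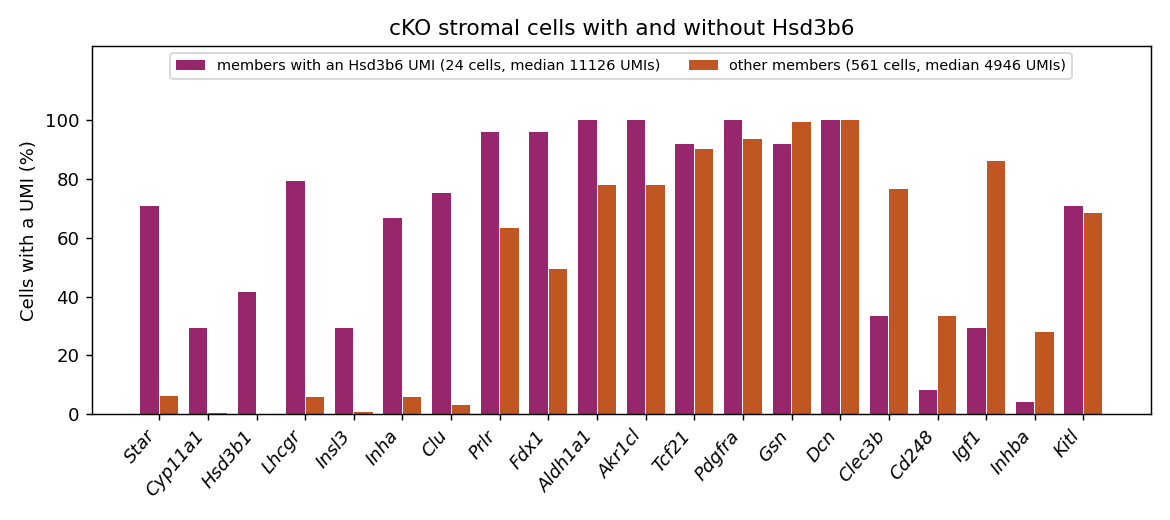
Bars give the percent of cKO stromal cells with at least 1 UMI of each gene, for the 24 cells with Hsd3b6 and the 561 without. Lhcgr and Star are frequent in the former, and Igf1 and Clec3b in the latter; the 24 cells are deeper, at a median of 11126.5 against 4946 UMIs.

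Sertoli markers, which should be absent from stromal cells, were also called higher in part. Of 6 measured genes 4 were higher in cKO over all members (Clu, Aard, Defb19 and Amhr2), beside 6.34% of all genes. Over germ-free members 3 were higher, beside 1.74% of all genes. Clu had 6, 0 and 328 counts, was at least 8.54-fold higher in cKO than in control against the floor, and was no longer called without the 24 cells with Hsd3b6. Defb19, a beta-defensin, was at 179, 45.0 and 318 CPM and in 39.7%, 14.9% and 43.9% of members, and kept a log2 ratio of 2.27 without those cells. In germ cells of the Tomato-negative library 70.2% held Defb19, against 1.10% and 2.66% in the other libraries.

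In the cKO library Dpt positive cells held Ly6a and Cd248, genes of the adventitial fibroblasts that sheathe vessels, more often than other members did. Dpt was one of the genes of the rule, and 8, 12 and 40 members held it. In the cKO library Ly6a was found in 70.0% of the 40 cells and 19.6% of the other 545, and Cd248 (endosialin) in 67.5% and 29.9%, at like median depths of 4488.5 and 5027 UMIs. Dcn stood at 17342 and 8785 CPM and Gsn at 9448 and 3679 CPM, whereas Tcf21 was found in 70.0% and 91.7%. Tcf21 and Gsn are genes of the rule too, and cells without Dpt had to hold more of its other genes. The lower share of Tcf21 in Dpt positive cells was thus in part fixed by the choice of members. In the 12 control cells Ly6a was found in 66.7%, against 74.3% of the other 35, and Cd248 in 33.3% against 51.4%. In the 8 Tomato-negative cells Ly6a was found in 50%, against 40% of the other 55, and Cd248 in 12.5% against 32.7%. Cd248 thus went the opposite way from the cKO library in both others, on few cells. Of 12 measured adventitial genes 0 were higher and 3 lower in cKO than in control (Ly6c1, Ly6a and Efhd1), beside 6.34% and 13.4% of all genes. Their median log2 ratio was -0.32. Over germ-free members 4 were lower (Ly6a, Has1, Cd248 and Creb5), beside 2.85% of all genes, with a median of -0.82.

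The other lists of stromal function are given over germ-free members, where 1.74% of all genes were higher and 2.85% lower. Of 17 collagens and their enzymes 1 was lower (Col5a1), of 26 proteoglycans and microfibril genes 4 (Prelp, Fbln1, Ltbp1 and Tnxb), of 10 basement membrane genes 0 either way, and of 16 stromal transcription factors 0 either way. Immediate early genes, which tissue dissociation induces, had a median log2 ratio of -0.15 over 22 genes with none called. Fos was at 2469, 5502 and 6319 CPM over all members and Jun at 3154, 4010 and 4305 CPM, lower in the Tomato-negative library than in the others. Of 12 heat shock genes 0 were called, although 3 were higher and 2 lower over all members, beside 6.34% and 13.4% of all genes. Of 16 other growth factors 3 were higher (Vegfd, Gas6 and Ptn) and 1 lower (Fst).

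**Figure D5:**
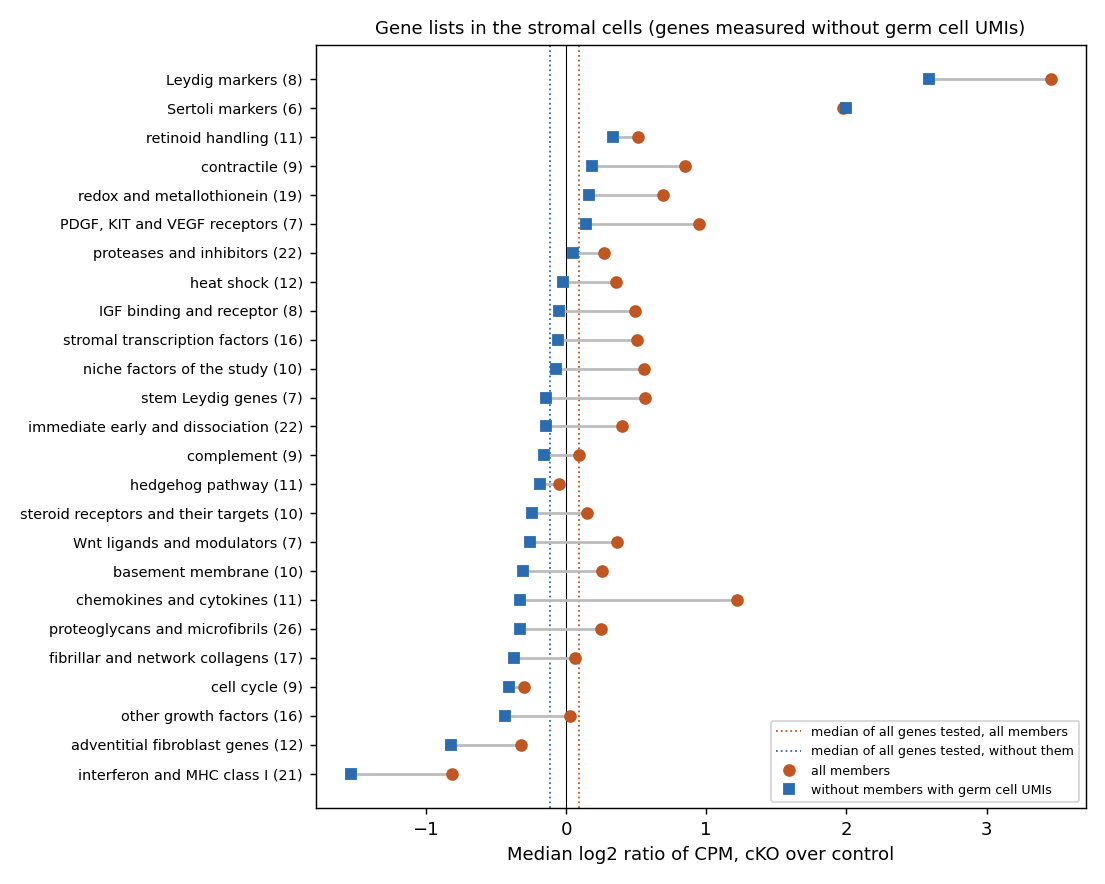
Points give the median log2 ratio of CPM, cKO over control, for each gene list over all members (circles) and over germ-free members (squares), with 0.5 added to each count, and dotted lines the medians over all genes, at 0.09 and -0.11. Of the lists drawn, which hold at least 6 measured genes and leave out the germ cell markers, interferon and MHC class I genes have the most negative median over germ-free members, at -1.54.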

How the data were processed

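Single-cell libraries of mouse testis were made with the Chromium 3′ v2 kit, and per the labels the authors processed them with Cell Ranger 2.1.1 on GRCm38 and Seurat 3.1. The deposited tables give raw counts of UMIs, a row per gene and a column per cell. The deposited table of the Tomato-negative library also holds 6264 control cells and 149 cKO barcodes, and only its own 7626 cells were used. The control and cKO tables hold 6264 and 7252 cells.

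Cells with at least 200 genes and at most 10% mitochondrial UMIs were kept. Member counts were summed per library over the 28487 genes shared by the control and cKO tables and scaled to CPM. With 1 library per group no test was run. Ratios had 0.5 added to each count and exact conditional 95% intervals, CPM exact Poisson and shares exact binomial intervals, all for counting error. Molecules, not reads, are counted. The comparison across genes left out the genes of the rule. Doublets were called by Scrublet in scanpy 1.11.5 and left in; 4, 3 and 26 members were called. The members and the 33 gene lists beside the rule's own genes were chosen with earlier results of these data known.

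Named were the rule's genes, the niche factors, the 15 genes with the highest and the 15 with the lowest interval end nearest 0 among called genes with at least 100 counts, and from each list the 3 most abundant and the 3 called members with the largest ratio. Genes outside this rule are marked as chosen after their values were seen. Gene models, mitochondrial, Xist and Y-linked genes were left out of the ranking. Some genes are not reported here. Promoter windows are from RefSeq. Comparison classes were cut by UMIs: myoid cells had at least 2 UMIs of Myh11 and of Acta2, germ cells at least 1 of Ddx4 and at most 1 of the 8 stromal genes. The closing section gives the alternatives. Calculations used Python 3.11.15, numpy 2.4.6, scipy 1.17.1 and pandas 2.3.3.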

Additional observations from a re-analysis of the deposited data

How the results depend on the processing

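With 1 library per group, a spread between mice is in none of these values, and the 47 control members, 2 of which hold 39.0% of the UMIs, limit every ratio. No paired analysis was possible because each group was 1 library. The 678 genes called higher became 153 with at most 3500 genes per cell, 2971 with at least 3 markers, 147 with at least 5, 399 with equal weight per cell, 118 after thinning to 2000 UMIs, 191 without called doublets and 164 over germ-free members. The 1435 called lower became 307, 2490, 233, 667, 235, 293 and 269 in the same order, and 2449 with no minimum count and 567 with at least 100 counts. Without members over 20000 UMIs, an alternative chosen after seeing the data, 190 were higher and 297 lower. Removal of the members with Hsd3b6 UMIs, also chosen after seeing the data, left 648 higher and 1421 lower. The subtracted free RNA was 7.27% of control and 1.22% of cKO member UMIs. Shares of members in the Tomato-negative, control and cKO libraries were 2.78%, 1.24% and 12.1% with at most 3500 genes, 1.38%, 1.09% and 10.5% with at least 3 markers, 0.626%, 0.441% and 4.76% with at least 5, and 0.755%, 0.519% and 6.65% at 2000 UMIs per cell. The cKO share was 7.49% without members with germ cell UMIs. None of the genes called over all members and recomputed here turned its direction. Fdx1, called over germ-free members, had a log2 ratio of -0.37 without members with Hsd3b6 UMIs. H2-K1, Gbp2 and Cxcl14 were no longer called with at least 3 markers, Icam1, Vegfd and Lhcgr after thinning, and Gas6 and Star with at most 3500 genes. The cause was not tested.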

Other observations

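Some genes set the Tomato-negative stromal cells apart from those of both other libraries, and age, genotype and sort differed together there, so these cannot be told apart. Gpx3, a secreted glutathione peroxidase, had 132, 0 and 54 counts in the Tomato-negative, control and cKO members and was found in 61.9%, 0% and 3.42% of them, but at no more than 1.22 CPM in myoid cells of any library. The metallothionein Mt1 was at 6851, 1929 and 3027 CPM in members and at 3407, 1190 and 2068 CPM in myoid cells, the same order in both. Cdkn1a, a cell cycle inhibitor called lower in cKO, had 25 counts in control members, but a UMI was found in only 6.38% of the 47 cells, so this value rests on 3 cells.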
